A study of Mus musculus with 62 samples.

Results

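The gastrocnemius of mice with a cachectic melanoma was compared with that of mock-injected mice 8 weeks after the injection, in 7 CAC and 5 Con libraries out of 62 in the series. The libraries were chosen by the group and week in their labels and by no measured value. CAC mice had received melanoma cells described as cachectic, and Con mice a mock injection. The mice were female and 2 months old, by the labels. The same age is given for every week of the series, so the labels do not say whether it holds at injection or at collection. Set beside them are 5 NCAC libraries of the same week, from mice given melanoma cells described as non-cachectic, and 5 CAC and 5 Con libraries of 6 weeks. The series design names NCI Ath/nude mice and the sample labels name C57BL/6J, so the strain remains uncertain. Nude mice lack a thymus and most T cells, so this bears on the lists of lymphocyte genes. The labels name neither the melanoma line nor the number of mice behind a library. The p-values of genes rest on a spread between libraries that was pooled over all 62 libraries of the series. This spread is not that of the CAC and Con libraries alone, and it may be partly technical.

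Cancer cachexia is the loss of muscle and fat that some tumours cause. In wasting muscle, interleukin-6 type cytokines signal through STAT3, glucocorticoids act through their nuclear receptor, and FoxO transcription factors are held back less by insulin and IGF-1 signalling. These inputs meet on the ubiquitin ligases MuRF1 (Trim63) and atrogin-1 (Fbxo32), which mark muscle proteins for the proteasome. The gastrocnemius is a calf muscle of mostly fast fibres, rich in calcium-handling and glycolytic proteins.

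The values are TPM, transcripts scaled to a fixed total, which takes account of transcript length. An estimated 45.64 M to 47.93 M reads lay behind each CAC library and 46.85 M to 47.7 M reads behind each Con library, and 17293 to 18009 genes in CAC and 17095 to 17606 genes in Con were above 0 TPM. Of 47643 symbols, the 12364 with at least 1 TPM in at least 5 of the 62 libraries were tested on log2(TPM + 1). Transcripts of the mitochondrial genome held 24.2% ± 3.53 of the TPM in CAC and 33.5% ± 3.02 in Con (SD, n = 7 and 5), a difference of -9.34 percentage points (exact permutation test, two-sided, p = 0.00505). The groups overlapped, since CAC replicate 1 was at 31.0% and Con replicate 2 at 28.6%. The 20 most abundant genes held 36.2% to 45.2% in CAC and 48.3% to 53.3% in Con, without overlap (exact permutation test, two-sided, p = 0.00253). Because TPM are shares, every other gene gains when the most abundant ones shrink. Changes of CAC against Con at 8 weeks are therefore given on the TPM scale and again after median-ratio scaling, called rescaling here, which sets the typical gene to the same level in every library. Rescaling moved the CAC minus Con change of a gene by a median of -0.37 on the log2 scale. In whole muscle, fewer cells of a type and less RNA per cell cannot be told apart.

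On the TPM scale 8069 genes were higher in CAC than in Con (65.3% of those tested) and 686 were lower (5.55%), by limma with Benjamini-Hochberg adjustment at 0.05. After rescaling 2826 were higher (22.9%) and 2759 lower (22.3%). All 2826 had been higher and all 686 were lower on both scales, while 357 genes (2.89%) called higher on the TPM scale were called lower after rescaling. The median gene changed by 0.36 on the TPM scale and by 0.02 after rescaling. In 3182 genes (25.7%) every CAC library lay above every Con library, and in 154 (1.25%) every CAC library lay below. Counts of list members are to be read beside these shares of all tested genes. In a list near or below them, rising or falling members are named as single genes only. In the following a gene is said to rise or fall only where it was called in that direction on both scales. Members whose call was lost on either scale when 1 library was left out are named only together with that loss. Values in parentheses after a gene are its log2 change on the TPM scale and then the rescaled change. The first principal component of the 12 libraries held 61.3% of the variance and parted CAC from Con. CAC replicate 3 lay nearest to Con on it, at -14.5 against -46.6 to -33.3 for Con, and CAC replicate 6 farthest, at 54.0. The second component held 16.6% and spread the CAC libraries, with replicates 6 and 1 at 42.7 and 24.6 and replicate 4 at -30.7. Without CAC replicate 3, 8204 genes were higher and 798 lower on the TPM scale, and 3170 were higher and 3052 lower after rescaling. Without Con replicate 1, in which the macrophage, interferon and MHC class II lists stood highest among the Con libraries, 7941 were higher and 624 lower on the TPM scale, and 2604 were higher and 2598 lower after rescaling.

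The largest rises were of metallothioneins and acute phase genes. Mt2, a small cysteine-rich protein that binds zinc, was at 82, 2513 and 3944 TPM (lowest, median and highest of 7) in CAC libraries, against 14.7, 21, 7.5, 8.3 and 15.6 TPM in the 5 Con libraries. CAC replicate 3 held the lowest value, and all other CAC libraries were above 1000 TPM. The log2 change of Mt2 was 6.86 (SE 0.78, adjusted p = 1.13e-09) on the TPM scale and 6.45 after rescaling (adjusted p = 3.64e-09). Mt1, its neighbour on chromosome 8, was at 136, 2140.4 and 3473 TPM (lowest, median and highest of 7) in CAC libraries, against 28.4, 36.5, 20.2, 27.9 and 41.6 TPM in the 5 Con libraries, with replicate 3 again lowest and no overlap between the groups. Its change was 5.76 (SE 0.60, adjusted p = 1.29e-10) on the TPM scale and 5.35 after rescaling (adjusted p = 4.89e-10). Without CAC replicate 3 the TPM-scale change was 7.57 for Mt2 and 6.37 for Mt1. Together with the zinc importer Slc39a14 (2.43, 2.07) they led a list of metallothioneins and zinc transporters. Of its 18 tested members 16 were higher and 1 lower on the TPM scale, and 7 were higher and 2 lower after rescaling, with a median of 0.50 and 0.14.

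Metallothionein genes are induced by zinc through the factor MTF1, which binds metal response elements. The search here used TGCNCNC, letters broader than that element, so a match need not be a binding site. The promoters of Mt2 (chr8:94172368-94172667, + strand) and Mt1 (chr8:94178839-94179138, + strand) are shown because these genes rose the most. Both are RefSeq windows of build GRCm38.p6, from 250 bases before to 50 after the start. The capitals mark each match to TGCNCNC on either strand.

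Mt2: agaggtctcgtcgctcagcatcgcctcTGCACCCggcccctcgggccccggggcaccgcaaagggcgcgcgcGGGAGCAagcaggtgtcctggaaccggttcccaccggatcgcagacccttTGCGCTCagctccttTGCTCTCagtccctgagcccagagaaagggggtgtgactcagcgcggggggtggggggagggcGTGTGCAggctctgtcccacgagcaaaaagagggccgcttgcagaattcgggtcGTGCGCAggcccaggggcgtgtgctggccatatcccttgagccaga

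Mt1: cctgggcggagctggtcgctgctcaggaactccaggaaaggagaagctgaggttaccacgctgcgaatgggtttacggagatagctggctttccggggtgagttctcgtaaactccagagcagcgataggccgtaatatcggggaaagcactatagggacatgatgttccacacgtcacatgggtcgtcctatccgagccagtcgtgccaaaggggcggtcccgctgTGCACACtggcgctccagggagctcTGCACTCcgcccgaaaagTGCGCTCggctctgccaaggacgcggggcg

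The Mt2 window holds 6 matches to the broader TGCNCNC and the Mt1 window 3. At least 1 match stands in 51% of the 32851 promoter windows of the table, at least 3 in 7.1% and at least 4 in 2.3%.

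**Figure D1:**
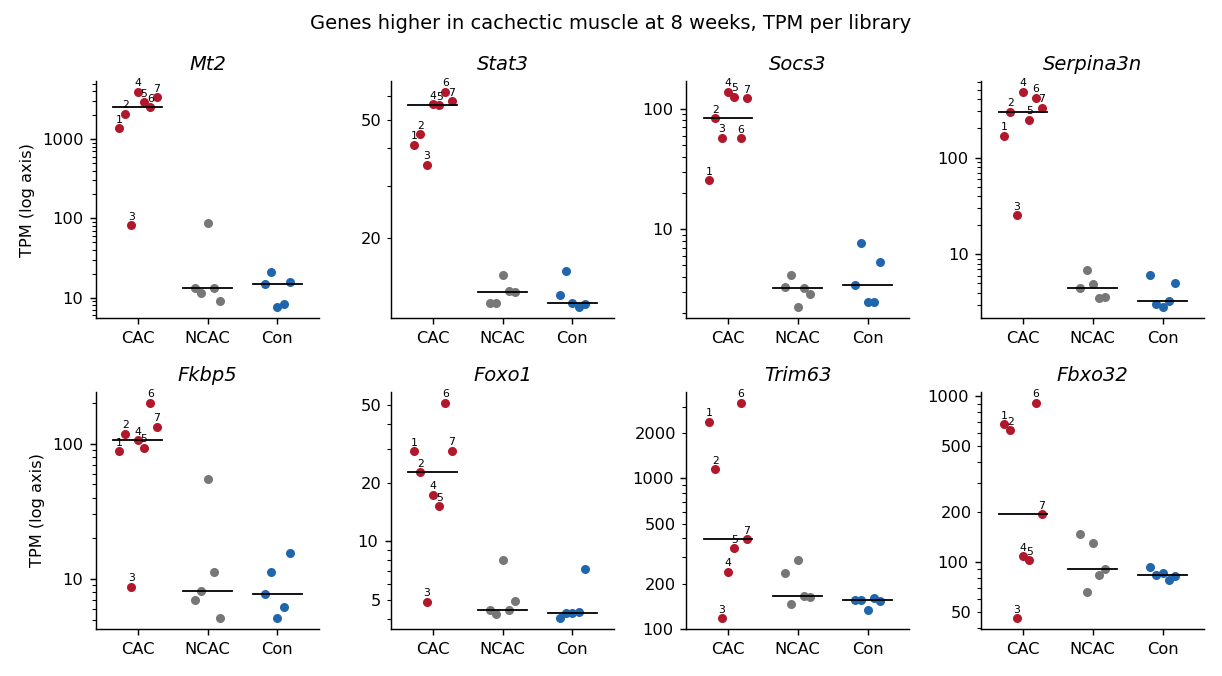
TPM per library (log axis) of 8 genes in CAC (red, n = 7, numbered by replicate), NCAC (grey, n = 5) and Con (blue, n = 5) muscle at 8 weeks, with the median as a bar. Every CAC library lies above every Con library for Mt2, Stat3, Socs3 and Serpina3n, while CAC replicate 3 lies among or below the Con libraries for Fkbp5, Foxo1, Trim63 and Fbxo32.

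Most genes of the STAT3 pathway and the acute phase rose. Stat3, which carries the signal of interleukin-6 to the nucleus (chromosome 11, 100885098 to 100939540, mm10), was at 35.2, 55.9 and 62 TPM (lowest, median and highest of 7) in CAC libraries, against 12.8, 15.5, 12.1, 11.7 and 12 TPM in the 5 Con libraries. The groups did not overlap, and CAC replicate 3 was lowest but near the rest of its group. The change of Stat3 was 1.88 (SE 0.12, adjusted p = 1.17e-17) on the TPM scale and 1.47 after rescaling (adjusted p = 7.69e-17). Its adjusted p was the lowest of the 12364 genes on the TPM scale. With only the CAC and Con libraries of 8 weeks fitted, the lowest adjusted p of any gene was 2.73e-05 (limma). Socs3, which feeds back to block the receptor kinases, was at 25.5, 83.9 and 138 TPM (lowest, median and highest of 7) in CAC libraries, against 3.46, 7.66, 2.49, 2.47 and 5.31 TPM in the 5 Con libraries. Its lowest CAC value was in replicate 1 and its 3 highest in replicates 4, 5 and 7. The change of Socs3 was 3.97 (SE 0.39, adjusted p = 1.66e-11) on the TPM scale and 3.58 after rescaling (adjusted p = 2.73e-10).

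Of the 32 tested members of this list 29 were higher and 0 lower on the TPM scale, and 24 were higher and 0 lower after rescaling. The median change was 1.68 and 1.33. In 21 members every CAC library was above every Con library, against 25.7% of all tested genes. Fgb and A2m were too low to be tested. Among the receptors and kinases, Osmr (1.97, 1.63), the oncostatin M receptor chain, rose. Among the targets and secreted proteins, Serpina3n, a protease inhibitor of the acute phase, was at 25.3, 298 and 479 TPM (lowest, median and highest of 7) in CAC libraries, against 6.08, 3.05, 2.82, 3.3 and 5.06 TPM in the 5 Con libraries. Its change was 5.46 (SE 0.52, adjusted p = 1.18e-11) on the TPM scale and 5.06 after rescaling (adjusted p = 4.45e-11). Lcn2, lipocalin 2, which withholds iron carriers from bacteria, was at 1.77, 42.8 and 97.5 TPM (lowest, median and highest of 7) in CAC libraries, against 0.574, 0.655, 0.115, 0.463 and 0.358 TPM in the 5 Con libraries, with replicate 3 lowest. Its change was 4.80 (SE 0.62, adjusted p = 1.98e-08) on the TPM scale and 4.46 after rescaling (adjusted p = 4.27e-08). Cebpd, a transcription factor that acts downstream of STAT3, ranged over 64.5 to 463 TPM (median 166) in CAC and 7.67 to 16.6 TPM (median 9.8) in Con and changed by 3.99 and 3.58. Haptoglobin, encoded by Hp (4.84, 4.44), and the serum amyloid genes Saa1 (3.55, 3.22) and Saa3 (3.39, 3.06) rose as well. Saa3 was at 177 TPM in replicate 4 and at or below 33.9 TPM in all others, and its TPM-scale change was 2.78 without replicate 4. The change of Lcn2 without replicate 3 was 5.44 on that scale. Also among the 15 largest rises without overlap were Wfdc17 (3.38, 2.99) and Tmem252 (3.36, 3.02).

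STAT factors bind the palindrome TTCNNNGAA. The promoter window of Socs3 (chr11:117969317-117969616, minus strand, RefSeq, GRCm38.p6) is shown because Socs3 is a feedback target of STAT3 and its window holds a match. The capitals mark its single match, which starts 154 bases before the transcription start.

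Socs3: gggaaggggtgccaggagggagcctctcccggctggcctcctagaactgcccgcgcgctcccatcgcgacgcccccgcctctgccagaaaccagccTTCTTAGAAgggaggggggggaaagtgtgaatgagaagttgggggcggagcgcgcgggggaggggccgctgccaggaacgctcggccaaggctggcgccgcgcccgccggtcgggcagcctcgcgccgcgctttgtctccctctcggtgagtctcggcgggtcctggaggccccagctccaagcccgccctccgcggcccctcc

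Such a match stands in 8.3% of the 32851 windows, and in 1 of the 12 largest rises that the table covers, Socs3 itself. The windows of Serpina3n, Lcn2, Saa1 and Saa3 hold none, which says only that these letters are not in those windows. Among the same 12 genes, the glucocorticoid receptor letters ACANNNTGT stood in 4, Mt1 among them (6.85% of all windows), and TGCNCNC in 7 (51%). The forkhead letters GTAAACA stood in 0 (3.65%), TTNCGNAA of C/EBP factors in 0 (2.47%) and the E-box CANCTG in 5 (51.4%). These counts were not tested against the shares.

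Genes of the glucocorticoid response were higher in most CAC libraries. Fkbp5, a chaperone partner of the glucocorticoid receptor and one of its classical targets, was at 8.79, 106 and 201 TPM (lowest, median and highest of 7) in CAC libraries, against 7.75, 11.2, 5.2, 6.19 and 15.5 TPM in the 5 Con libraries. CAC replicate 3 lay inside the Con range, and all other CAC libraries were well above it. The change of Fkbp5 was 3.13 (SE 0.62, adjusted p = 2.42e-05) on the TPM scale and 2.73 after rescaling (adjusted p = 2.62e-04). Ddit4 (REDD1), an inhibitor of mTORC1, ranged over 30.9 to 531 TPM (median 207) in CAC and 5.57 to 13.4 TPM (median 7.41) in Con and changed by 4.19 and 3.79. Glul, glutamine synthetase, rose to 708 TPM on average, against 149.7 TPM in Con (log2 change 2.23 and 1.81). Hsd11b1, which regenerates active glucocorticoid, and Errfi1, an inhibitor of the EGF receptor, rose by 1.54 and 1.77 (1.19 and 1.37 rescaled), and the phosphatidate phosphatase gene Lpin1 (1.33, 0.92) rose too. Of 21 tested members 18 were higher and 0 lower on the TPM scale, and 15 were higher and 1 lower after rescaling, with a median of 1.33 and 0.92. In 6 members the libraries did not overlap, a share near the 25.7% of all tested genes. Measured as the median rescaled difference from the Con mean, the list stood at 0.21 in CAC replicate 3 and at 0.87 to 1.39 in the other CAC libraries.

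The FoxO factors and their targets divided the CAC libraries. Foxo1 was at 4.9, 22.6 and 51.7 TPM (lowest, median and highest of 7) in CAC libraries, against 4.03, 4.26, 4.27, 4.34 and 7.24 TPM in the 5 Con libraries, and changed by 1.90 (SE 0.37, adjusted p = 2.07e-05) on the TPM scale and 1.51 after rescaling (adjusted p = 4.99e-04). Foxo3 rose by 1.15 (0.76 rescaled). Foxo6 fell (-0.97 and -1.24). Eif4ebp1, the translation repressor 4E-BP1, rose to 537 TPM on average, against 78.3 TPM in Con (log2 change 2.43 and 2.01). Gadd45a, a stress gene of denervated and fasted muscle, was at 21.4, 51.7 and 201 TPM (lowest, median and highest of 7) in CAC libraries, against 18.5, 20.1, 21.7, 20.2 and 19.6 TPM in the 5 Con libraries. Of the 21 members 17 were higher and 1 lower on the TPM scale, and 13 were higher and 2 lower after rescaling, with a median of 1.15 and 0.76. The libraries of 3 members did not overlap, a share below the 25.7% of all tested genes. The list median, rescaled and relative to the Con mean, was 1.85, 1.29 and 1.03 in CAC replicates 6, 1 and 2, 0.28 in replicate 7, and -0.10, -0.02 and 0.10 in replicates 3, 4 and 5. The last 3 values lay close to the Con libraries, which ranged from -0.09 to 0.13. The STAT3 list stood at 1.61, 1.59 and 1.31 in replicates 7, 4 and 5, and 0.91 in replicate 1. Replicate 2 lay beside replicate 5 at 1.31, replicate 6 was at 1.19, and replicate 3 was lowest at 0.58. These orders were seen in the values and were not tested.

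Trim63 and Fbxo32, the ligases of atrophy, were highest in the 3 libraries that led the FoxO list. Trim63 (chromosome 4, 134315120 to 134329629, mm10) was at 118, 396 and 3202 TPM (lowest, median and highest of 7) in CAC libraries, against 155, 155, 132, 161 and 152 TPM in the 5 Con libraries. Replicates 6, 1 and 2 were at 3202, 2393 and 1156 TPM, replicates 7, 5 and 4 at 396, 344 and 240.2 TPM, and replicate 3 was below all Con libraries. The change was 2.03 (SE 0.47, adjusted p = 1.85e-04) on the TPM scale and 1.61 after rescaling (adjusted p = 0.00321). Fbxo32 was at 45.8, 194 and 913 TPM (lowest, median and highest of 7) in CAC libraries, against 93.6, 82.8, 85.4, 77.2 and 82.5 TPM in the 5 Con libraries, with the same 3 libraries highest and replicate 3 lowest. Its change was 1.46 (SE 0.45, adjusted p = 0.00389) on the TPM scale and 1.05 after rescaling (adjusted p = 0.0449). The rescaled call of Fbxo32 was lost when CAC replicate 1, 2 or 6 or any Con library was left out, with changes of 0.75 without CAC replicate 6 and 1.08 without Con replicate 1 (adjusted p = 0.159 and 0.06, limma). Fbxo31, the substrate adaptor of another SCF ligase, rose to 230.2 ± 127 TPM in CAC, against 65.2 ± 6.86 TPM in Con (SD, n = 7 and 5; 1.61 and 1.2), as did Trim72 (1.21, 0.79), which takes part in membrane repair. Fbxo40, a muscle ligase for IRS1, and Trim55 (MuRF2), a sarcomere-bound relative of MuRF1, fell (-0.35 and -0.76, and -0.46 and -0.87). Of the 21 ligases 15 were higher and 3 lower on the TPM scale, and 7 were higher and 4 lower after rescaling, with a median of 0.41 and 0.04. The summed level of the ligases ranged over 1926 to 6671 TPM in CAC and 1693 to 1873 TPM in Con.

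FoxO factors bind GTAAACA. The Trim63 window (chr4:134314870-134315169, + strand, RefSeq, GRCm38.p6) is shown because it holds a match. The match is in capitals, on the opposite strand, and starts 194 bases before the start site.

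Trim63: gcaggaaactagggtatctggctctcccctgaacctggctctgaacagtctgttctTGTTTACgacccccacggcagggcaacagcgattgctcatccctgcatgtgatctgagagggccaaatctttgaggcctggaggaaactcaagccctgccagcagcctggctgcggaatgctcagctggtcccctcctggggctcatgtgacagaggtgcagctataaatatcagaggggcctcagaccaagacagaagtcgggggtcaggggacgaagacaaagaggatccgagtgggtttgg

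Of the 32851 windows 3.65% hold such a match. The Trim63 window also holds 1 match to the glucocorticoid receptor letters ACANNNTGT and 1 to the E-box CANCTG, neither in capitals. Those letters stand in 6.85% and 51.4% of all windows. The table has no window for Fbxo32.

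**Figure D2:**
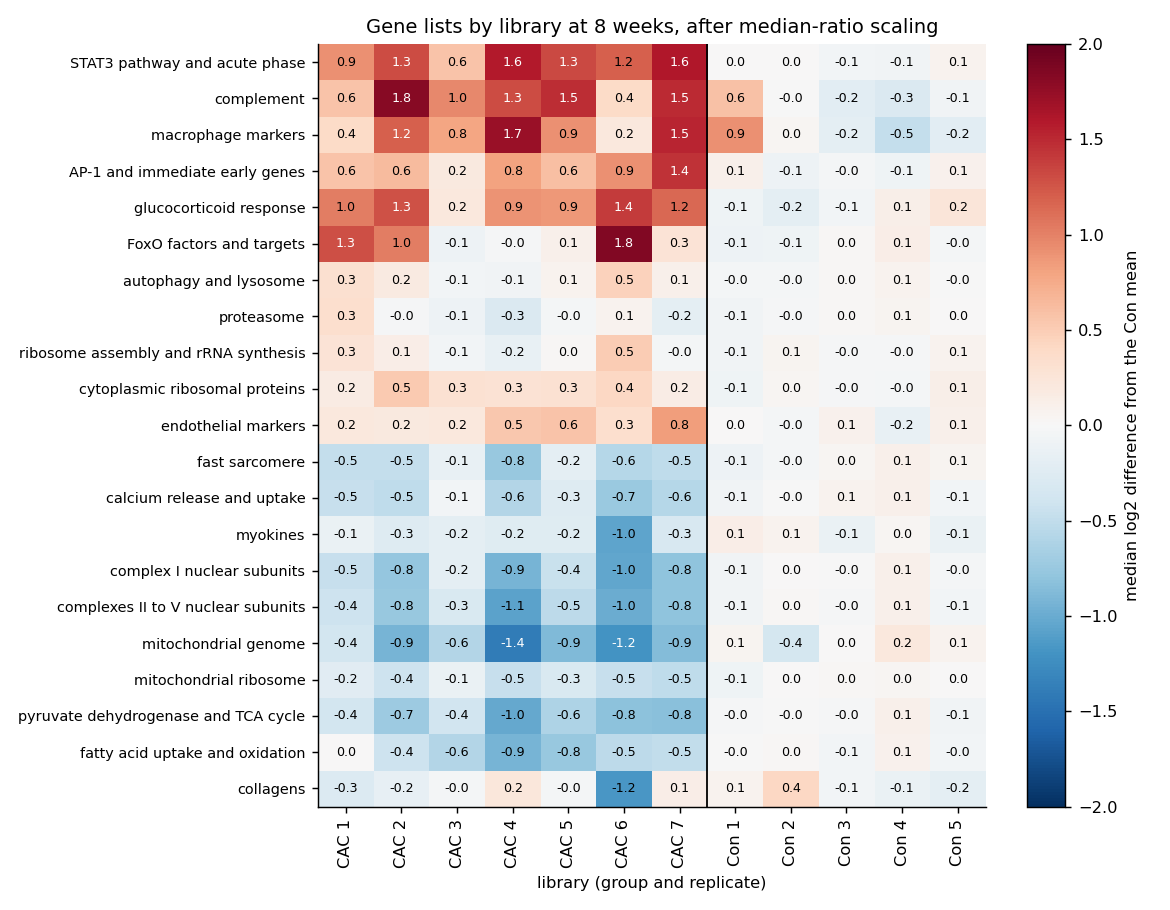
Median over the tested members of 21 gene lists in each library, as the rescaled log2 difference from the Con mean, with the 7 CAC libraries left of the line and the 5 Con libraries right of it. The FoxO row is at 1.85, 1.29 and 1.03 in CAC replicates 6, 1 and 2 and near 0 in replicates 3, 4 and 5, while the STAT3 row is above the Con libraries in all 7.

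Downstream of the ligases, the proteasome lay near the median gene. Of its 42 subunits and assembly factors 34 were higher and 0 lower on the TPM scale, and 3 were higher and 8 lower after rescaling, with a median of 0.36 and -0.05. The regulatory particle subunit Psmd4 (0.99, 0.58), a ubiquitin receptor, and the core subunit Psma7 (0.83, 0.42) rose, while Psmb1 (0.52, 0.11) and Psma3 (0.52, 0.11) were higher on the TPM scale only. The list median was 0.33 in CAC replicate 1 and -0.28 in replicate 4, after rescaling. Of 34 autophagy and lysosome genes 30 were higher and 0 lower on the TPM scale, and 13 were higher and 4 lower after rescaling (median 0.55 and 0.15). Map1lc3b (1.35, 0.93) and Gabarap (0.86, 0.45), which coat the autophagosome, and Lamp2 (1.07, 0.67) of the lysosome membrane rose.

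Most genes of the cytoplasmic ribosome rose. Of 83 tested ribosomal protein genes 82 were higher and 0 lower on the TPM scale, and 67 were higher and 2 lower after rescaling. In 71 of them every CAC library was above every Con library, against 25.7% of all tested genes. The list median was 0.71 and 0.30, and Rps20 (0.97, 0.55), Rps28 (0.94, 0.52), Rps16 (0.87, 0.45) and Rps9 (0.87, 0.45) lay above it. The whole list held 4.78% ± 0.735 of the TPM in CAC and 2.88% ± 0.248 in Con. Several ribosomal protein genes have many processed pseudogenes, between which reads can be split. Of 31 genes of ribosome assembly 28 were higher and 0 lower on the TPM scale, and 12 were higher and 4 lower after rescaling (median 0.52 and 0.14), with Myc (1.58, 1.23), Npm1 (0.89, 0.48) and Nop14 (0.82, 0.42) rising. Of 40 translation factors 36 were higher and 0 lower on the TPM scale, and 9 were higher and 7 lower after rescaling (median 0.49 and 0.08). Eif1a (1.28, 0.89), an initiation factor, Eef1a1 (1.13, 0.71), the elongation factor of most tissues, and Eef2 (0.89, 0.47) rose, whereas Eef1a2, its muscle form, changed by 0.02 and -0.40 and was called lower after rescaling only.

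The most reduced of the preset genes was Actc1. Actc1 (chromosome 2, 114047282 to 114053548, mm10), cardiac actin, which adult skeletal muscle still transcribes at a low level, was at 5.19, 20.4 and 289 TPM (lowest, median and highest of 7) in CAC libraries, against 490.3, 624, 522, 180.3 and 426 TPM in the 5 Con libraries. CAC replicate 1 overlapped the Con libraries, and 4 CAC libraries were at or below 20.4 TPM. Its change was -3.61 (SE 0.61, adjusted p = 2.16e-06) on the TPM scale and -4.0 after rescaling (adjusted p = 1.65e-06). Ostn, the muscle-secreted peptide musclin, was at 5.85, 9.31 and 35.9 TPM (lowest, median and highest of 7) in CAC libraries, against 121, 80.8, 56.1, 138 and 107 TPM in the 5 Con libraries, without overlap, and changed by -2.85 (SE 0.40, adjusted p = 9.58e-08) on the TPM scale and -3.23 after rescaling (adjusted p = 4.13e-08). Ighm, the heavy chain of immunoglobulin M, was at 4.0, 6.54 and 49.1 TPM (lowest, median and highest of 7) in CAC libraries, against 109.9, 56.1, 108, 114 and 94.3 TPM in the 5 Con libraries. All CAC libraries were below all Con libraries, and the change was -3.16 (SE 0.47, adjusted p = 2.48e-07) on the TPM scale and -3.52 after rescaling (adjusted p = 1.49e-07). Ostn and Ighm led the 15 largest falls without overlap. The others, besides Pvalb, were the muscle lysine methyltransferase gene Mettl21e (-1.77, -1.96), the glucose-6-phosphate transporter gene Slc37a4 (-1.39, -1.79), the magnesium transporter gene Slc41a3 (-1.27, -1.67), the secreted factor gene Metrn (-1.12, -1.51), Lrtm1 (-1.70, -2.0), Cdh4 (-1.60, -1.80), Kazald1 (-1.44, -1.79), Rsph1 (-1.54, -1.68), Mettl11b (-1.25, -1.62), Fam131a (-1.13, -1.52), Cmbl (-1.11, -1.51) and Fam57b (-1.04, -1.43).

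**Figure D3:**
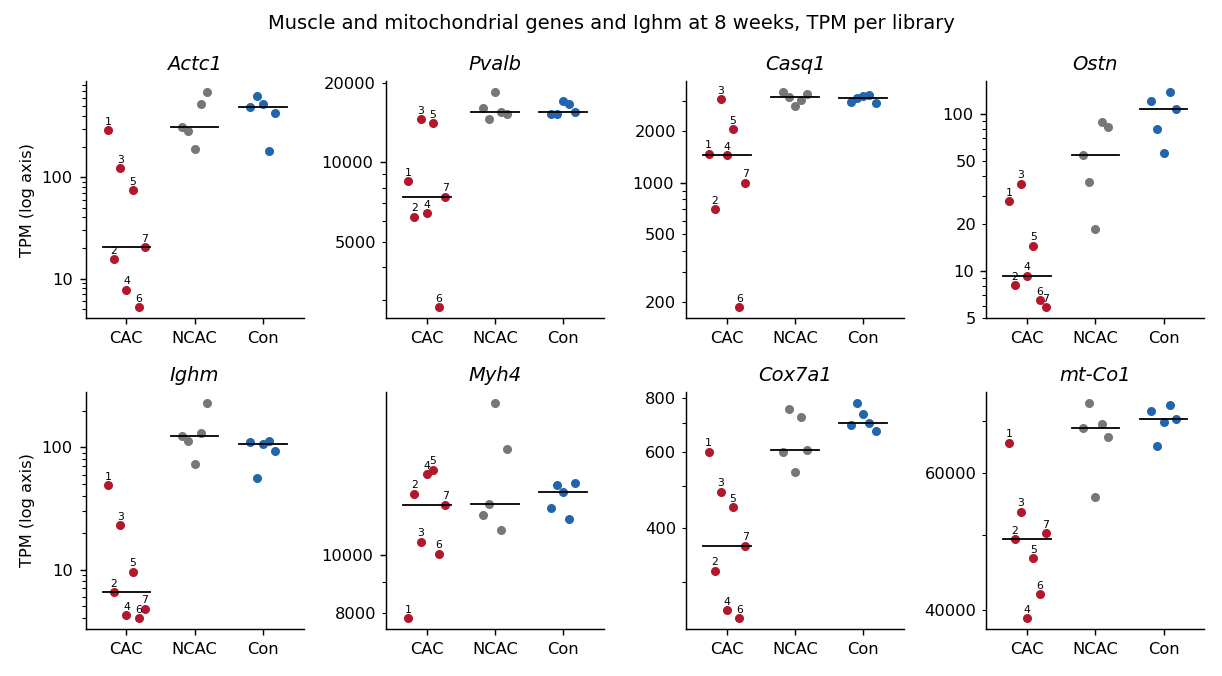
TPM per library (log axis) of 8 genes in CAC (red, n = 7, numbered by replicate), NCAC (grey, n = 5) and Con (blue, n = 5) muscle at 8 weeks, with the median as a bar. CAC replicate 6 is the lowest of its group for Actc1, Pvalb, Casq1 and Ighm, while for Myh4 the Con range lies inside the CAC range.

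Parvalbumin and calsequestrin fell in most CAC libraries. Pvalb, the calcium buffer parvalbumin of fast fibres, was at 2814, 7389 and 14509.9 TPM (lowest, median and highest of 7) in CAC libraries, against 15255, 15184, 17043, 16546 and 15481 TPM in the 5 Con libraries. All CAC libraries were below all Con libraries, replicates 3 and 5 by little, and replicate 6 was lowest. Its change was -1.07 (SE 0.23, adjusted p = 6.73e-05) on the TPM scale and -1.49 after rescaling (adjusted p = 1.69e-05). Casq1, the calcium store protein calsequestrin, was at 186, 1450.2 and 3095 TPM (lowest, median and highest of 7) in CAC libraries, against 2997, 3125, 3222, 3296 and 2935 TPM in the 5 Con libraries, with replicate 3 inside the Con range, and changed by -1.52 (SE 0.33, adjusted p = 1.08e-04) on the TPM scale and -1.93 after rescaling (adjusted p = 3.98e-05). Stac3 (-0.56, -0.97) and Cacna1s (-0.34, -0.76), parts of the coupling between the membrane and calcium release, fell. Sln, sarcolipin, which inhibits the calcium pump, rose to 94.3 ± 83.5 TPM in CAC, against 15.1 ± 6.62 TPM in Con (SD, n = 7 and 5; 2.28 and 1.87). The pump of fast fibres, Atp2a1 (0.47, 0.05), was called higher on the TPM scale only. Of 25 calcium genes 8 were higher and 8 lower on the TPM scale, and 2 were higher and 15 lower after rescaling, with a median of -0.13 and -0.54.

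The fast myosin heavy chain Myh4, the most abundant of the type IIb fibres, was at 7846, 12136 and 13874 TPM (lowest, median and highest of 7) in CAC libraries, against 11962, 13075, 12742, 11499 and 13217 TPM in the 5 Con libraries. The Con range lay inside the CAC range, and its change of -0.14 and -0.55 was called only after rescaling. Myh1, of type IIx fibres, was called higher on the TPM scale only (0.74 and 0.33), Myh2 of type IIa fibres on neither (0.02 and -0.40), and the slow Myh7 on the TPM scale only (0.59 and 0.17). Without CAC replicate 3 the rescaled changes of Myh1 and Myh2 were 0.42 and -0.47 and both were called, and without Con replicate 1 the TPM-scale change of Myh7 was 0.39 and was not called. The Myh7 call was lost as well without CAC replicate 2, 3, 4 or 6 or Con replicate 2 or 5. The light chain genes Myl1 (-0.90, -1.32) and Mylpf (-0.61, -1.02) and the troponin C gene Tnnc2 (-0.44, -0.86) fell. The skeletal actin gene Acta1 (-0.29, -0.71) was lower on both scales, but its TPM-scale call was lost without CAC replicate 4 or 6 or Con replicate 2, with a change of -0.22 without CAC replicate 6. Of 18 fast sarcomere genes 6 were higher and 7 lower on the TPM scale, and 0 were higher and 10 lower after rescaling (median -0.04 and -0.46). Together they held 19.9% ± 2.59 of the TPM in CAC and 21.9% ± 1.16 in Con. Of 15 slow sarcomere genes 7 were higher and 0 lower on the TPM scale, and 2 were higher and 1 lower after rescaling (median 0.42 and 0.07), with Ankrd2 (1.54, 1.12), a stretch-responsive factor, rising.

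Of 8 developmental sarcomere genes 2 were higher and 2 lower on the TPM scale, and 1 was higher and 3 lower after rescaling, Actc1 among the lower ones. Of 29 Z-disc, M-band and giant protein genes 13 were higher and 3 lower on the TPM scale, and 3 were higher and 11 lower after rescaling (median 0.27 and -0.15). Desmin, Des (1.32, 0.91), which ties the Z-discs together, and filamin C, Flnc (1.12, 0.71), rose, and Myom2 (-0.33, -0.75) of the M-band and Pdlim7 (-0.49, -0.90) fell. The dystrophin complex list had 11 higher and 0 lower on the TPM scale, 1 and 3 after rescaling among 18, and the membrane excitability list 4 higher and 1 lower on the TPM scale, 0 and 7 after rescaling among 16. Of 12 genes that define the myofibre 5 were higher and 4 lower on the TPM scale, and 1 was higher and 6 lower after rescaling. Myh4, Acta1 and Ttn, among them, were present in every library, and the lowest Myh4 level was 7846 TPM in CAC and 11499 TPM in Con.

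Most genes of the respiratory chain fell. All 13 protein genes of the mitochondrial genome had lower means in CAC, and 12 were called on the TPM scale and 13 after rescaling (median -0.50 and -0.91). Thus mt-Co1 (-0.52, -0.94), the catalytic subunit of cytochrome oxidase, ranged over 39058 to 65617 TPM (median 49282) in CAC and 64969 to 73358 TPM (median 70371) in Con, and the groups overlapped at CAC replicate 1 and Con replicate 2. The other oxidase genes mt-Co2 (-0.52, -0.93) and mt-Co3 (-0.57, -0.99) and the cytochrome b gene mt-Cytb (-0.48, -0.89) fell alike. Of 37 nuclear subunits of complex I 2 were higher and 28 lower on the TPM scale, and 0 were higher and 36 lower after rescaling (median -0.27 and -0.68). Ndufs1 (-0.79, -1.21), Ndufa9 (-0.41, -0.82), Ndufs8 (-0.48, -0.89) and Ndufa10 (-0.39, -0.81) fell. Of 42 nuclear subunits of complexes II to V 3 were higher and 34 lower on the TPM scale, and 1 was higher and 38 lower after rescaling (median -0.28 and -0.69). The muscle form Cox7a1 (-0.95, -1.36) was at 247 to 601 TPM (median 363) in CAC and 671 to 781 TPM (median 699) in Con. Uqcrc1 (-0.64, -1.05), Atp5g3 (-0.56, -0.97) and Uqcrc2 (-0.50, -0.91) fell, and Cox8a (0.70, 0.29), the form of most other tissues, rose.

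Most genes of the mitochondrial ribosome were called lower only after rescaling. Of 76 such genes 19 were higher and 12 lower on the TPM scale, and 0 were higher and 57 lower after rescaling (median 0.05 and -0.36), with Mrpl28 (-0.38, -0.79) and Mrpl12 (-0.33, -0.75) falling. Protein import gave 12 higher and 2 lower on the TPM scale, 0 and 21 after rescaling among 29, with the peptidase subunit Pmpcb (-0.30, -0.69) falling. Of 20 regulators 5 were higher and 4 lower on the TPM scale, and 3 were higher and 11 lower after rescaling. Ppargc1a (PGC-1α), a coactivator of mitochondrial genes, ranged over 7.12 to 36.5 TPM (median 8.86) in CAC and 7.66 to 15.9 TPM (median 9.43) in Con and was called on neither scale (0.29 and -0.08). Perm1 (-0.78, -1.19), Sirt3 (-0.44, -0.83) and the nuclear receptor Esrra (-0.34, -0.74) fell, and Nrf1 (0.61, 0.29), a factor of respiratory genes, rose. Of 26 genes of pyruvate dehydrogenase and the citric acid cycle 3 were higher and 19 lower on the TPM scale, and 0 were higher and 23 lower after rescaling (median -0.29 and -0.70), with Mdh2 (-0.57, -0.99), Sucla2 (-0.53, -0.94) and Cs (-0.42, -0.84) falling. Pdk4, the kinase that shuts pyruvate dehydrogenase, was at 148, 397 and 1658 TPM (lowest, median and highest of 7) in CAC libraries, against 319, 249, 169, 226 and 173 TPM in the 5 Con libraries, high in replicates 1, 6 and 2. Its change of 1.24 and 0.82 was called on the TPM scale only, and not without CAC replicate 1 or 6 (0.96 and 1.0). Without CAC replicate 5 its rescaled change of 1.11 was called.

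Of 28 fatty acid genes 6 were higher and 10 lower on the TPM scale, and 2 were higher and 17 lower after rescaling (median -0.15 and -0.56). The carrier Fabp3 (-0.67, -1.09) and the dehydrogenases Acads (-0.64, -1.05) and Acadvl (-0.42, -0.83) fell, and the mitochondrial carrier Ucp2 (1.29, 0.91) rose. Of 31 glycolysis and glycogen genes 11 were higher and 10 lower on the TPM scale, and 2 were higher and 17 lower after rescaling (median 0.03 and -0.38), with the muscle enzymes Pgam2 (-0.60, -1.01) and Pkm (-0.53, -0.95) and the phosphorylase kinase subunit Phkb (-0.37, -0.78) falling. Breakdown of branched-chain amino acids gave 1 higher and 4 lower on the TPM scale, 0 and 16 after rescaling among 19, with Ivd (-0.35, -0.76) falling. Of 17 polyamine and creatine genes 5 were higher and 5 lower on the TPM scale, and 3 were higher and 9 lower after rescaling. Ckmt2 (-1.0, -1.42), the mitochondrial creatine kinase, and Amd1 (-0.64, -1.05), the decarboxylase for polyamines, fell, and Sat1 (1.45, 1.05), which breaks polyamines down, and Srm (0.77, 0.38), spermidine synthase, rose. Amd1 and its near copy Amd2 (-0.64, -0.99) can share reads.

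**Figure D4:**
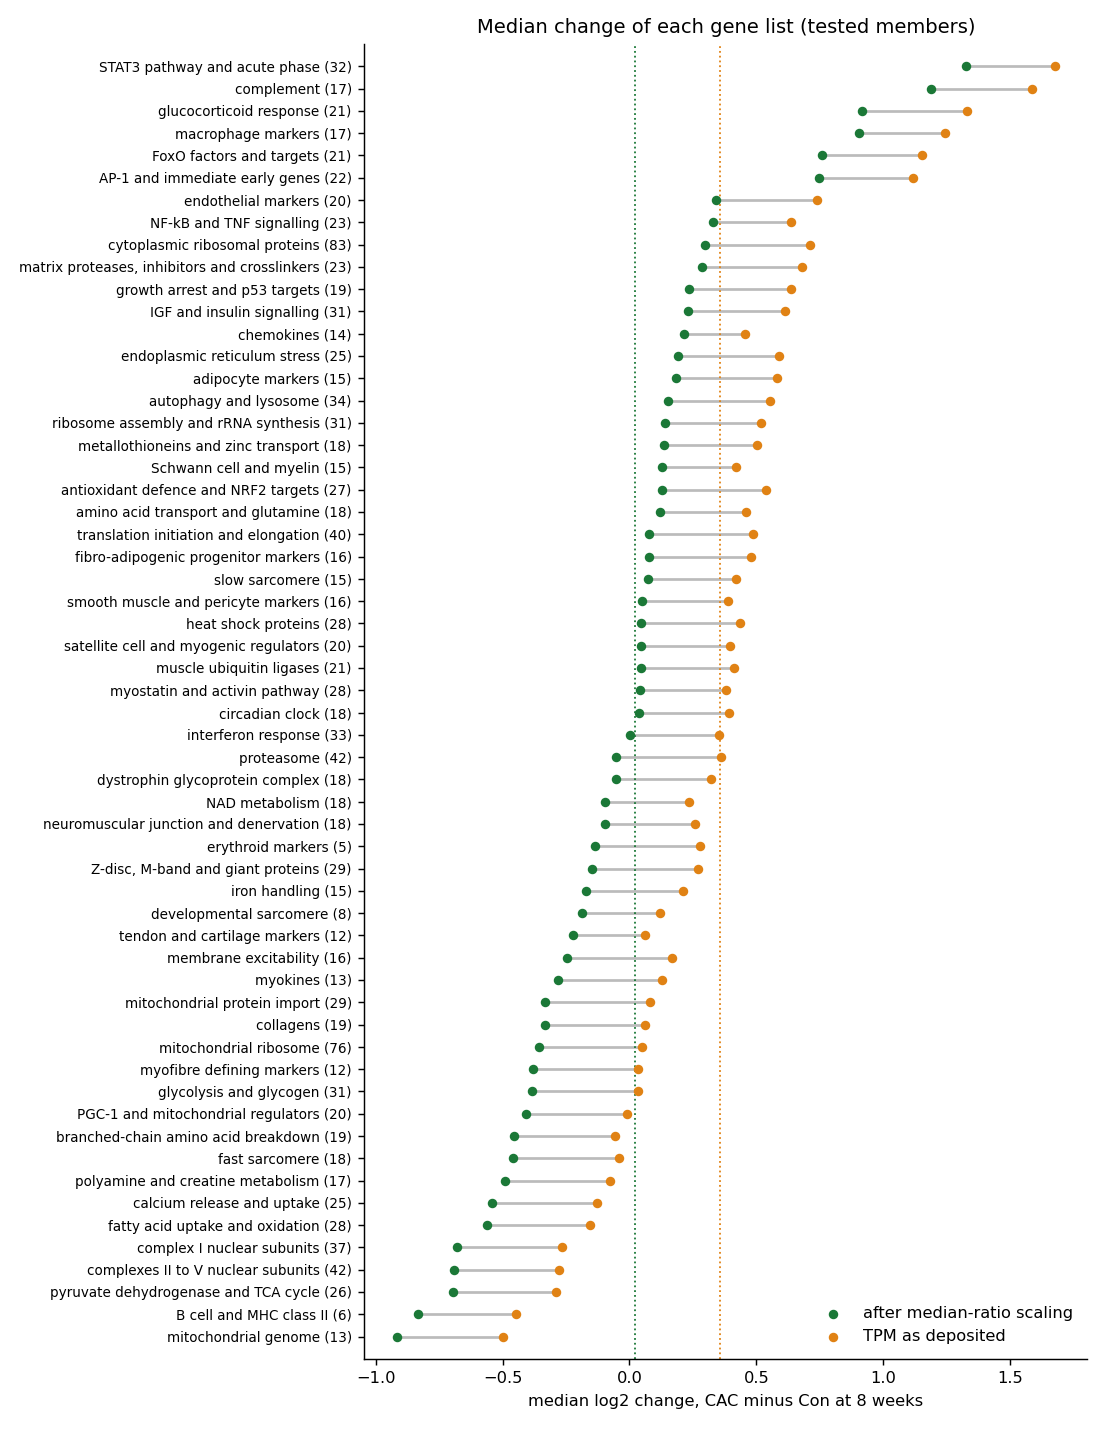
Median log2 change, CAC minus Con at 8 weeks, of the tested members of 58 gene lists (number in parentheses), on the TPM scale (orange) and after rescaling (green), with dotted lines for the median of all tested genes. The STAT3 list is highest at 1.68 and 1.33 and the mitochondrial genome lowest at -0.50 and -0.91.

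Among nerve contact genes, Chrna1, a subunit of the acetylcholine receptor that rises after denervation, was at 11.9, 49.4 and 108 TPM (lowest, median and highest of 7) in CAC libraries, against 9.72, 9.93, 11.7, 10.8 and 9.14 TPM in the 5 Con libraries. All CAC libraries were above all Con libraries, replicate 4 being highest and replicate 1 lowest. Its change was 1.67 (SE 0.26, adjusted p = 6.66e-07) on the TPM scale and 1.27 after rescaling (adjusted p = 3.87e-05). Runx1 (0.86, 0.65), also induced by denervation, rose at a low level, whereas Myog, a regulator of the receptor genes, was called on neither scale (0.44 and 0.05). Of 18 members 7 were higher and 2 lower on the TPM scale, and 2 were higher and 5 lower after rescaling. On both scales 2 members rose and 2 fell. Of 20 satellite cell and myogenic genes 10 were higher and 1 lower on the TPM scale, and 4 were higher and 2 lower after rescaling. In this list and that of nerve contact genes, the shares called higher lay below the 65.3% and 22.9% of all tested genes. Sdc4 (1.30, 0.90), a proteoglycan of satellite cells, and Cdh15 (0.92, 0.52), M-cadherin, rose, and Mef2c (-0.56, -0.97), a transcription factor of muscle genes, fell.

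Mstn, the growth inhibitor myostatin, ranged over 19.98 to 50.4 TPM (median 37.3) in CAC and 26.1 to 34.2 TPM (median 30.1) in Con and was called on neither scale (0.17 and -0.23). Of 28 members of its pathway 14 were higher and 2 lower on the TPM scale, and 7 were higher and 6 lower after rescaling, with the receptors Tgfbr2 (1.51, 1.11) and Tgfbr3 (1.38, 0.99) rising and the ligands Tgfb2 (-0.91, -1.23) and Gdf11 (-0.51, -0.75) falling. Igf1 rose to 6.26 ± 3.03 TPM in CAC, against 2.28 ± 0.52 TPM in Con (SD, n = 7 and 5; 1.06 and 0.72), and so did its receptor Igf1r (1.06, 0.72) and the binding proteins Igfbp4 (1.91, 1.5) and Igfbp7 (1.51, 1.09). Igfbp5 (-0.45 and -0.86) was lower after rescaling only, and not called without CAC replicate 2 or 6 or Con replicate 1, 3 or 4 (-0.57 without CAC replicate 6). The adaptor Grb14 (-1.0, -1.31), an inhibitor of insulin signalling, fell. Of 31 members 22 were higher and 2 lower on the TPM scale, and 14 were higher and 6 lower after rescaling (median 0.61 and 0.23). Of 13 myokines 3 were higher and 5 lower on the TPM scale, and 2 were higher and 5 lower after rescaling. Il15 (-0.76, -1.10) and Fndc5 (-0.60, -1.0), the precursor of irisin, fell with Ostn and Metrn, and the BMP antagonist Nog (2.13, 1.75) and the proteoglycan Dcn (1.05, 0.63) rose. Il6, Il7, Lif, Fgf21 and Bdnf were too low to be tested.

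Of 19 growth arrest and p53 target genes 15 were higher and 1 lower on the TPM scale, and 7 were higher and 2 lower after rescaling. Cdkn1a, the cell cycle inhibitor p21, was at 12.3, 43.5 and 153 TPM (lowest, median and highest of 7) in CAC libraries, against 18.6, 23.9, 12.6, 18.4 and 8.39 TPM in the 5 Con libraries, and CAC replicate 3 was below all but 1 Con library. Its change was 1.63 (SE 0.43, adjusted p = 8.02e-04) on the TPM scale and 1.23 after rescaling (adjusted p = 0.0121). The rescaled call was lost without Con replicate 5 (1.03, adjusted p = 0.0508, limma). Eda2r, a receptor of the TNF family, rose (1.17 and 0.81) with Btg2 (1.83, 1.43) and Trp53inp1 (1.43, 1.07), and Trp53inp2 (-0.82, -1.22), an autophagy factor, fell. Of 22 immediate early genes 17 were higher and 0 lower on the TPM scale, and 14 were higher and 0 lower after rescaling (median 1.12 and 0.75), with Junb (2.72, 2.31), Jun (1.18, 0.77) and Ier5 (1.13, 0.75) rising. Of 23 NF-kB and TNF genes 19 were higher and 0 lower on the TPM scale, and 14 were higher and 1 lower after rescaling, with Bcl3 (1.88, 1.55), Il1r1 (1.66, 1.31), Tnfrsf1a (1.56, 1.15) and the inhibitor Nfkbia (1.34, 0.94) rising. Of 33 interferon genes 13 were higher and 1 lower on the TPM scale, and 5 were higher and 3 lower after rescaling (median 0.35 and 0.00), with the receptor chains Ifngr1 (1.01, 0.61) and Ifnar2 (0.87, 0.53) rising. The shares of interferon genes called higher lay below the 65.3% and 22.9% of all tested genes. In this list Con replicate 1 stood high, at a rescaled list median of 0.71.

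Of 25 endoplasmic reticulum stress genes 23 were higher and 0 lower on the TPM scale, and 8 were higher and 0 lower after rescaling, with Edem1 (1.18, 0.84), Canx (0.80, 0.39) and Hsp90b1 (0.64, 0.23) rising. Heat shock genes gave 21 higher and 1 lower on the TPM scale, 5 and 7 after rescaling among 28, with Hspb1 (0.93, 0.52) and Hspa2 (1.03, 0.68) rising. Of 18 clock genes 9 were higher and 2 lower on the TPM scale, and 4 were higher and 3 lower after rescaling. Nfil3 (2.49, 2.09), a repressor of clock output, and Rora (1.26, 0.86) rose, and Bhlhe41 (-1.01, -1.37), a repressor of the clock, fell. Dbp (-1.29, -1.69), an activator of clock output, was lower on both scales, but not called on the TPM scale without CAC replicate 5 (-0.82). The time of day of tissue collection is not given in the sources used here. Of 27 antioxidant genes 20 were higher and 3 lower on the TPM scale, and 6 were higher and 6 lower after rescaling, with Hmox1 (2.06, 1.67), Gpx3 (1.29, 0.87), Gclm (1.01, 0.65) and Nfe2l2 (0.92, 0.52) rising and the mitochondrial Sod2 (-0.43, -0.84) falling. The iron list gave 5 higher and 2 lower on the TPM scale, 2 and 6 after rescaling among 15. Ferritin light chain, Ftl1 (1.07, 0.66), rose, and the transferrin receptor Tfrc (-1.5, -1.87) and myoglobin, Mb (-0.89, -1.31), fell. The NAD list gave 10 higher and 3 lower on the TPM scale, 6 and 6 after rescaling among 18, with Naprt (0.93, 0.54), Nadk (0.85, 0.45) and Cd38 (0.89, 0.56) rising and Nmrk2 (-2.33, -2.65), a muscle nicotinamide riboside kinase, falling. Without CAC replicate 3 the TPM-scale change of Nmrk2 was -2.97. Amino acid transport gave 11 higher and 1 lower on the TPM scale, 8 and 2 after rescaling among 18, with Slc3a2 (1.19, 0.79) and Slc38a4 (1.19, 0.78) rising.

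Markers of macrophages and complement genes were higher in CAC. Of 17 tested macrophage markers 16 were higher and 0 lower on the TPM scale, and 13 were higher and 0 lower after rescaling (median 1.24 and 0.91), with Cd163 (2.34, 1.97), C1qa (1.82, 1.41) and Mrc1 (1.62, 1.25) rising. Their summed level ranged over 323 to 1063 TPM in CAC and 109 to 382 TPM in Con, an overlap due to Con replicate 1, whose rescaled list median of 0.92 lay above that of CAC replicates 1, 3, 5 and 6. Ms4a7 and Cx3cr1 were too low to be tested. Of 17 complement genes 16 were higher and 0 lower on the TPM scale, and 13 were higher and 1 lower after rescaling. The rescaled median of this list in Con replicate 1, 0.59, lay above those of CAC replicates 1 and 6, at 0.56 and 0.39. C4b was at 33.9, 85.3 and 137 TPM (lowest, median and highest of 7) in CAC libraries, against 13.9, 4.55, 4.62, 3.55 and 9.77 TPM in the 5 Con libraries, without overlap, and changed by 3.41 and 3.01. C3 (2.75, 2.34) and Serping1 (1.92, 1.51) rose as well. Of 14 tested chemokines 8 were higher and 0 lower on the TPM scale, and 5 were higher and 3 lower after rescaling, with Cxcl13 (4.34, 3.99), Ccl8 (4.08, 3.70), Ccl6 (2.68, 2.29) and Cxcl14 (2.59, 2.17) rising and 9 of 23 too low to be tested. The TPM-scale change of Ccl8 was 4.86 without Con replicate 1. In that library the rescaled median of the chemokine list was 0.53, above all CAC libraries but replicate 4, at 0.70. Of the 11 neutrophil markers 4 were tested, 3 higher and 0 lower on the TPM scale, 2 and 0 after rescaling. Of 12 T and NK cell markers only Thy1 (-0.27, -0.64) was tested. It was not called, but was called lower after rescaling without CAC replicate 3 (-0.76) or 5 (-0.74). Of 12 B cell and MHC class II genes 6 were tested and 1, Ighm, was called. The B cell genes Cd79a, Cd79b and Ms4a1 were too low to be tested. Con replicate 1 stood high in this list too, at a rescaled median of 2.06. The part of these cells in the changes of other lists was not tested.

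Of 20 endothelial markers 18 were higher and 1 lower on the TPM scale, and 13 were higher and 1 lower after rescaling (median 0.74 and 0.34), with Ly6c1 (1.52, 1.11), Esam (1.25, 0.85) and Pecam1 (1.09, 0.68) rising. In 13 of the endothelial markers every CAC library was above every Con library, against 25.7% of all tested genes. Smooth muscle and pericyte markers gave 9 higher and 2 lower on the TPM scale, 3 and 2 after rescaling among 16, with Tagln (1.62, 1.21) rising and Lmod1 (-0.82, -1.17) falling. Of 16 fibro-adipogenic progenitor markers 9 were higher and 0 lower on the TPM scale, and 6 were higher and 0 lower after rescaling, with Apod, a lipocalin at 107 to 368 TPM (median 308) in CAC and 21 to 36.8 TPM (median 24.2) in Con (3.13 and 2.72), and Ly6a (1.46, 1.05) rising. Of 19 collagens 6 were higher and 1 lower on the TPM scale, and 2 were higher and 5 lower after rescaling. On both scales 2 collagens rose and 1 fell, Col22a1 (-0.99, -1.27) of the muscle-tendon junction. The list was lowest in CAC replicate 6, at a rescaled median of -1.17. Matrix enzymes gave 16 higher and 1 lower on the TPM scale, 9 and 2 after rescaling among 23, with the protease Mmp3 (3.26, 2.92), the crosslinker Lox (2.63, 2.26) and Mmp14 (1.55, 1.17) rising. Tendon and cartilage markers gave 2 higher and 2 lower on the TPM scale, 1 and 2 after rescaling among 12, with Prg4 (2.06, 1.68) rising and Chad (-1.99, -2.23) falling. Schwann cell and myelin genes gave 2 higher and 0 lower on the TPM scale, 1 and 0 after rescaling among 15.

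Adipocyte markers gave 8 higher and 1 lower on the TPM scale, 5 and 2 after rescaling among 15, with Plin4 (1.49, 1.08) and Retn (1.51, 1.11) rising. Of 5 tested erythroid genes none was called on either scale by limma, and 0 had an unadjusted p under 0.05 on the TPM scale. Their summed level ranged over 107 to 17891 TPM in CAC and 566 to 1672 TPM in Con, highest in CAC replicate 3 and lowest in replicate 4. Of 9 melanocyte markers 3 were tested, 2 higher and 0 lower on the TPM scale, 1 and 0 after rescaling. Pmel, Mlana, Tyr, Tyrp1, Dct and Slc45a2 were too low to be tested, and the one that rose, Gpnmb (1.43, 1.12), is also a macrophage gene.

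Set against NCAC muscle of the same week, the same CAC libraries gave calls for many genes. On the TPM scale 8346 genes were higher in CAC than in NCAC (67.5%) and 593 lower (4.8%), and after rescaling 2795 (22.6%) and 2765 (22.4%). NCAC minus Con gave 0 calls on either scale by limma (0.0% in each direction), with 42 genes higher and 97 lower at an unadjusted p under 0.05 on the TPM scale, and 73 higher and 111 lower after rescaling. Con libraries are shared by the first and the third comparison and CAC libraries by the first and the second, so the values are set side by side only. Stat3 averaged 50.4 ± 10.02 TPM in CAC and 13.1 ± 1.22 TPM in NCAC (SD, n = 7 and 5; log2 change 1.84 and 1.42 rescaled, adjusted p = 2.52e-17 on the TPM scale by limma). Serpina3n averaged 281 ± 153 TPM in CAC and 4.7 ± 1.35 TPM in NCAC (5.27, 4.85), and Socs3 87.3 ± 42.9 TPM in CAC and 3.18 ± 0.706 TPM in NCAC (4.23, 3.82). In Trim63, 1121 ± 1215 TPM in CAC and 199.6 ± 59.6 TPM in NCAC gave a change of 1.67 (adjusted p = 0.00146 by limma; 1.24 and adjusted p = 0.0224 rescaled). Fbxo32 averaged 379 ± 348 TPM in CAC and 104 ± 34.2 TPM in NCAC (1.23, adjusted p = 0.0139 by limma; 0.79 and adjusted p = 0.134 rescaled). The genes of lowest p included Atp9a, a phospholipid flippase gene (2.73, 2.30), Tmem176b (2.93, 2.50), Tmem176a (2.82, 2.42) and the cytokine receptor chains Csf2rb (2.93, 2.55) and Csf2rb2 (2.83, 2.46). Of the lists, the STAT3 and acute phase genes were 28 of 32 higher against NCAC and 26 after rescaling, and the complex I subunits 26 and 36 of 37 lower. The FoxO list had 16 of 21 members higher on the TPM scale and 8 after rescaling.

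The effect at 8 weeks could be tested against that at 6 weeks, since these comparisons share no library. The difference between the effects passed the threshold for 0 of 12364 genes by limma on either scale (0.0%), with the lowest adjusted p at 0.279. At an unadjusted p under 0.05 there were 339 genes with a larger and 46 with a smaller value at 8 weeks on the TPM scale, and 225 and 171 after rescaling. Without CAC replicate 3 the TPM-scale difference was called for 1 gene in each direction, and without CAC replicate 2 for 1 gene with a larger value. On the TPM scale Mt2 changed by 6.86 at 8 weeks and 6.21 at 6 weeks, Serpina3n by 5.46 at 8 weeks and 4.73 at 6 weeks, Stat3 by 1.88 at 8 weeks and 1.89 at 6 weeks, Trim63 by 2.03 at 8 weeks and 2.02 at 6 weeks, Casq1 by -1.52 at 8 weeks and -1.62 at 6 weeks and Actc1 by -3.61 at 8 weeks and -3.39 at 6 weeks. Saa3 (3.39 at 8 weeks and 1.68 at 6 weeks), Ighm (-3.16 at 8 weeks and -1.92 at 6 weeks) and Ddit4 (4.19 at 8 weeks and 3.03 at 6 weeks) differed by over 1 between the weeks, each with an adjusted p of 0.996 for the difference by limma. On that scale the median gene changed by 0.36 at 8 weeks and 0.28 at 6 weeks. The STAT3 list had a median of 1.68 at 8 weeks and 1.51 at 6 weeks, the FoxO list 1.15 and 0.99, and the complex I list -0.27 and -0.22.

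**Figure D5:**
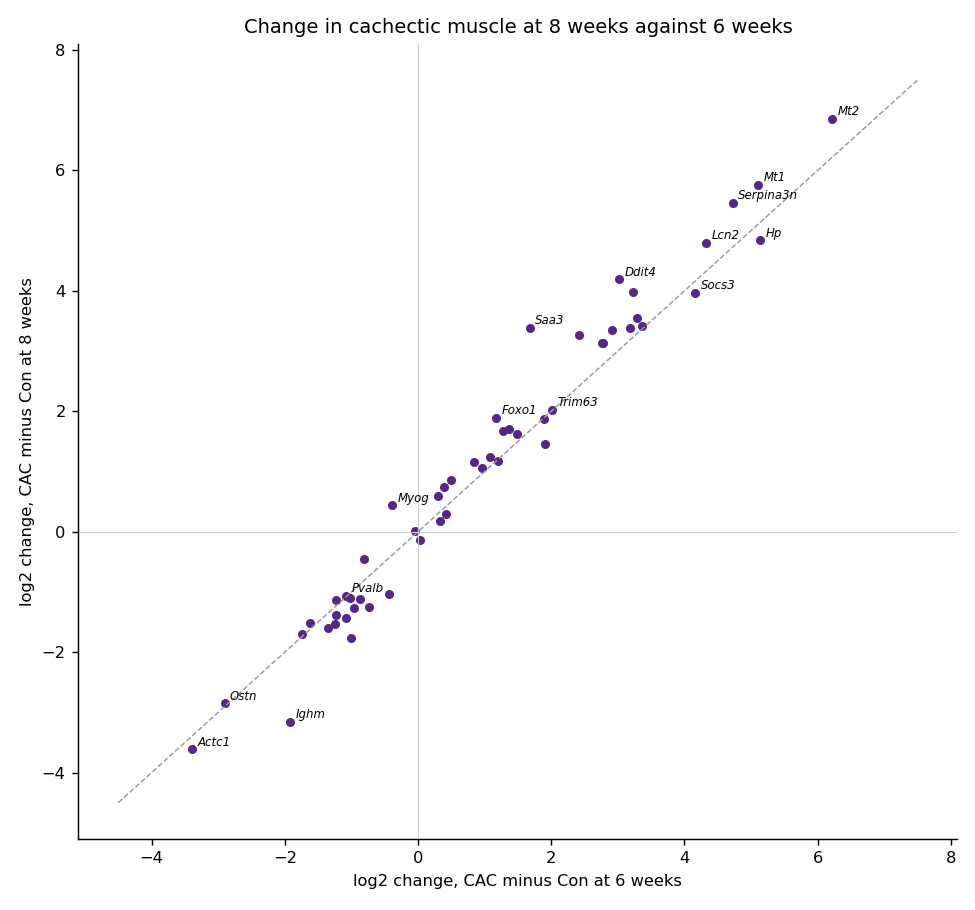
Log2 change on the TPM scale, CAC minus Con, at 8 weeks (vertical) against 6 weeks (horizontal) for 53 genes, the preset genes and the 15 largest rises and falls, with the line of equal change dashed. Of the 53 genes, 50 have the same sign at both weeks. These genes were preset or picked by their change at 8 weeks, and the share over all tested genes was not counted. The median of all tested genes is 0.36 at 8 weeks and 0.28 at 6 weeks.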

How the data were processed

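The authors deposited 1 table of TPM (transcript abundance scaled to the same total in every library) for 47643 gene symbols in 62 libraries of mouse gastrocnemius, 5 in each of 11 groups and 7 in CAC at 8 weeks. Libraries were made from RNA extracted with Trizol by a stranded mRNA kit, per the labels' protocols, and the build is mm10, per the submitters' processing notes. The sources used here do not name the program that aligned the reads, the one that made the TPM or the annotation. The treatment tag of the labels is the same in all 62 libraries and served for no grouping. Groups came from the description of each library, which matched its title.

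Genes with at least 1 TPM in at least 5 libraries were fitted on log2(TPM + 1) in 1 limma model (version 3.58.1, R 4.3.3, trend = TRUE) with a mean for each of 12 groups over all 62 libraries, two-sided, with Benjamini-Hochberg adjustment over all 12364 genes at 0.05. A change on log2(TPM + 1) understates that of genes of low level. The same model was fitted after dividing each library by a median-ratio size factor (rescaling). Single values per library were compared by exact permutation over 792 splits (scipy 1.17.1). On simulated data for the comparison of CAC with Con, over 12364 genes, the model called 71.64% of 67 genes changed by 1.5-fold, 94.44% of 72 by 2-fold and 100% of 61 by 4-fold. It also called 7 unchanged genes. The simulated noise was normal, with the same spread of a gene in every group. In the data far more genes were called, and genes such as Trim63 spread wider in CAC than in Con. The simulated rates may therefore not hold for this comparison. Reads per library were estimated from the steps of low TPM values and exon lengths of the GENCODE annotation, and 77.85% to 79.49% of values of 1 to 20 reads lay within 0.02 of a whole number, so these depths are approximate. Depth limits the precision of genes of low level. Between-library correlation did not exceed 0.99672, and no libraries were identical. Same-numbered libraries did not deviate together.

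The members and the gene lists were chosen with earlier results of these data known. Named genes are preset ones, the 15 largest rises and falls without overlap (clone names passed over), up to 4 called members of lowest p in each direction and the 2 most abundant members of each list, and the 8 genes of lowest p in the other comparisons. Of these, list members whose call depended on 1 library were passed over unless preset or given with that dependence, a choice made after the values were seen. Alternatives were another pseudocount, other filters, omission of the mitochondrial genome, array weights, a fit of the compared groups alone, a replicate block and omission of each library. Promoter windows are from RefSeq, and motifs were searched on both strands.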

Additional observations from a re-analysis of the deposited data

Results flagged for a closer look

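Of 553 groups of values, each of 5 or 7 libraries, examined for a library far from the rest, 26 held one, and chance flags about 1 group in 20. Of the 26, 9 were genes at which CAC replicate 3 was far below the other 6 CAC libraries. Its levels were 81.985 TPM of Mt2, 135.93 TPM of Mt1, 25.325 TPM of Serpina3n, 1.7746 TPM of Lcn2, 1.234 TPM of Saa1, 1.6748 TPM of Cxcl13, 8.7867 TPM of Fkbp5, 180.57 TPM of Glul and 3.615 TPM of Lox. The same library held 1.79% of its TPM in erythroid genes, against 0.0107% to 0.177% in the other CAC libraries. CAC replicate 6 was far below its group in Mef2c (29.217 TPM), in the rescaled median of the myokines (-1.048) and in that of the collagens (-1.167), and CAC replicate 5 in that of the clock genes (-0.4856).

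Among Con libraries, replicate 5 was far above its group in Foxo1 (7.2405 TPM), Nfil3 (22.175 TPM) and Plin4 (209.03 TPM). Replicate 1 was far above in Ccl8 (41.949 TPM) and in the median of the melanocyte markers (0.07634). Replicate 2 was far below in Ighm (56.057 TPM) and mt-Co2 (40368 TPM), and far above in Ndufs8 (337.25 TPM) and the endoplasmic reticulum stress median (0.05808). Replicate 4 was far below in Btg2 (10.027 TPM) and Pecam1 (20.197 TPM), and far above in Ppargc1a (15.908 TPM) and the NAD median (0.07314). The causes of these values were not tested.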

How the results depend on the processing

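CAC against Con gave 8069 higher and 686 lower genes on the TPM scale, 2826 and 2759 after median-ratio scaling, and 1257 lower with the mitochondrial genome left out. CAC against NCAC gave 8346 and 593, and 2795 and 2765 after scaling, with 1016 lower without the mitochondrial genome and 365 lower when only the compared groups were fitted. Fitting only CAC and Con gave 6937 higher and 489 lower genes on the TPM scale. The lowest adjusted p was then 2.73e-05 by limma, against 1.17e-17 with the spread pooled over all libraries. The same fit left 1706 higher genes after scaling. The replicate numbers do not pair the libraries, with correlations of deviations from -0.22 to 0.03. With the replicate block CAC against Con gave 3982 higher and 240 lower genes, CAC against NCAC 4237 and 104, and the rescaled fit 558 and 697. In the same paired form the mitochondrial share differed by -8.96 and the share of the top 20 genes by -9.57 percentage points, each with p = 0.0625 (exact sign-flip test), the smallest that 5 pairs allow. NCAC against Con gave 2 lower genes without a filter on level. The causes of these differences in counts were not tested. Leaving out 1 library gave 7405 to 8222 higher and 577 to 798 lower genes against Con, 7752 to 8455 and 474 to 691 against NCAC, 2421 to 3170 and 2476 to 3052 after scaling, 0 in either direction for NCAC against Con, and 0 to 1 in each direction for 8 against 6 weeks. The mitochondrial share then differed by -10.574 to -8.73 and the top 20 share by -11.122 to -9.468.

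Of 211 named genes, 4 changed sign between the scales, Eef1a2 (-0.40 after scaling), Mstn (-0.23), Myh2 (-0.40) and Ppargc1a (-0.084). None of these 4 was called on the TPM scale. Without the mitochondrial genome Eef1a2, Mstn and Myh2 were at -0.17, -0.014 and -0.17. Myh2 was at -0.038 with array weights and -0.083 with the replicate block, and Ppargc1a at -0.17 with the block. With 1 library left out, the TPM-scale change spanned -0.033 to 0.081 for Eef1a2 and -0.041 to 0.111 for Myh2, and the scaled change -0.038 to 0.341 for Myh7, -0.039 to 0.140 for Myog and -0.320 to 0.10 for Ppargc1a. A pseudocount of 0.1 changed the side of the threshold of 0 of the 211 genes, and leaving out 1 library ended calls in 13 of 2532 fits on the TPM scale and 14 of 2532 after scaling. List members whose call depended on 1 library had been passed over unless preset or given with that dependence. The counts of calls ended are therefore low by the choice of genes and cannot show how other genes depend on 1 library. Calls ended for 24 of the 211 with the replicate block and 8 with the compared groups alone, and for 62 and 16 with the same settings after scaling. Scaling alone ended 6, and array weights, no filter and omission of the mitochondrial genome 2 each. The depth limits the precision of low genes. Of the 47643 symbols, 24293 were at 0 in all 62 libraries, for reasons that were not tested.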
